A study of Mus musculus with 36 samples.

Results

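The coagulation and fibrinolysis genes examined here are 36 genes that encode the clotting factors of blood plasma, the proteins that hold clotting in check, and the enzymes and inhibitors that dissolve a clot. They were chosen by symbol as a fixed set of pathway members, and all 36 were found among the 21889 gene symbols of the expression table. Of these, 28 were grouped as liver-made, that is, by hepatocytes (14 procoagulant factors, 7 coagulation inhibitors, 5 fibrinolysis genes and 2 enzymes of the vitamin K cycle). The other 8 are known mainly from endothelium, blood cells or stroma. The grouping was by role and not by these values, and Serpina5, grouped as liver-made, was below 1 FPKM at every age but Day 0. The liver mRNA was measured by RNA-Seq in untreated male C57BL/6 mice (C57BL/6J in the study's methods), 3 mice at each of 12 ages. The ages were Day -2 (2 days before birth), Day 0 (birth), Days 1, 3, 5, 10, 15 and 20, before weaning, and Days 25, 30, 45 and 60, after it. The labels name no transgene, deletion or treatment for any group, and Day 60 stands for the adult. Values are FPKM, that is, sequenced fragments scaled by transcript length and library size, so levels of different genes are compared per length.

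Clotting runs as a cascade of proteases that circulate as inactive precursors and cut each other in turn. The contact system (factor XII, plasma kallikrein, factor XI and kininogen) and tissue factor with factor VII start it, prothrombin is cut to thrombin, and thrombin turns fibrinogen into fibrin, which factor XIII cross-links. Several factors work only after vitamin K-dependent carboxylation, antithrombin and the protein C system limit the cascade, and plasmin, made from plasminogen, dissolves fibrin. The liver makes most of these proteins, and newborn mammals are known for low levels of many of them.

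The liver label was checked against hepatocyte markers, of which all 6 (Alb, Ttr, Cps1, Tat, Hnf4a and G6pc) were expressed and were higher at Day 60 than at Day -2. Their summed level was 5030 ± 396 FPKM (SD, n = 3 mice) at Day -2, 29795 ± 4705 at Day 0, 44056 ± 1539 at Day 20 and finally 35347 ± 3182 at Day 60. The fetal liver also makes blood, and the summed level of 6 erythroid markers fell over the same ages, from 36.6% of the summed FPKM of a library at Day -2 to 16.7% at Day 0 and 0.172% at Day 60. In these bulk samples, fewer cells of a type and less RNA per cell cannot be told apart. Summed FPKM per mouse ranged from 353712 to 450597, replicates correlated with r of 0.952 or more over 36 pairs, and relative depth, read from the steps between low values, ranged from 0.89 to 1.15. At 17 members with a mean of at least 100 FPKM, the coefficient of variation between mice of an age had a median of 10.9%. The study's methods state that the males came from several litters, but not which mice shared one, so p-values measure the spread between these samples only.

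The promoters of 6 members are shown because the results turn on these genes: Hrg, with the largest rise at birth, F9, which was still at its highest at Day 60, the fibrinogen chains Fga, Fgb and Fgg, which moved together, and Serpina5, which was high at a single age. Each line gives the 250 bases before the RefSeq start of transcription, found at a single place in the NCBI37/mm9 genome, read 5′ to 3′ on the gene's strand. Capitals mark exact matches to motifs of liver transcription factors.
Hrg, chr16:22950895-22951144, plus strand: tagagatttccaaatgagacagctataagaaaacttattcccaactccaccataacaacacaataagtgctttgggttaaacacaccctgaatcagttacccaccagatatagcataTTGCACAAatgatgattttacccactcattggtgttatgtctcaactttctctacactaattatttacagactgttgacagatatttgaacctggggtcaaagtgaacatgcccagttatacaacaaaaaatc
F9, chrX:57252391-57252640, plus strand: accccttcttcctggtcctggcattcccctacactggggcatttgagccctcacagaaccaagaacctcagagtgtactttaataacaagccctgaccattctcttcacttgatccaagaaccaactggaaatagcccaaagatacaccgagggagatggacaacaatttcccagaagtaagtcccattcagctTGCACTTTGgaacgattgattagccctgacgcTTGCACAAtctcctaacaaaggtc
Fga, chr3:82829825-82830074, plus strand: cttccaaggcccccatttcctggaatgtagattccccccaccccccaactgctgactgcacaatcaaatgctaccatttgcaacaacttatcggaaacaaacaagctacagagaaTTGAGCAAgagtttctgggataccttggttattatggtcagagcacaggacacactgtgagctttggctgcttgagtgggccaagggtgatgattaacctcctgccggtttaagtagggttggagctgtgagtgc
Fgb, chr3:82853786-82854035, minus strand: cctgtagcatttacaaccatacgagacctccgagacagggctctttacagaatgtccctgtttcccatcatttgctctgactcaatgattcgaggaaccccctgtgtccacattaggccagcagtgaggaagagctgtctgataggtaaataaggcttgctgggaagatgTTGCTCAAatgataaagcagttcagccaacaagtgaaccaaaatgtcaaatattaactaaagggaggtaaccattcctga
Fgg, chr3:82811396-82811645, plus strand: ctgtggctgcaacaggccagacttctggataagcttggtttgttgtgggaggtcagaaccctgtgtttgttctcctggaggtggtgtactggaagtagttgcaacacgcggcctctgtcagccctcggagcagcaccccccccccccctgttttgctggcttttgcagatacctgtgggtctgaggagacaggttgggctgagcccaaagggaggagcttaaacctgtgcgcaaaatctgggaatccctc
Serpina5, chr12:105339073-105339322, plus strand: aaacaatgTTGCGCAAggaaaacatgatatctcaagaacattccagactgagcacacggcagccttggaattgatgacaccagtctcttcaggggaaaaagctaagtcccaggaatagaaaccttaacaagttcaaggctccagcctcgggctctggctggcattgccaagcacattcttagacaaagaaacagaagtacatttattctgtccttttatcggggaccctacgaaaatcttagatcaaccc

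Of the motifs searched on both strands, CAAAGTNCA (HNF4), TAATNATTA (HNF1), TTGCNNAA (C/EBP) and TGTTTAC (FOXA), the F9 promoter held the HNF4 motif from 56 to 48 bases before the start and the C/EBP motif from 24 to 17 bases before it. Hrg held a C/EBP motif from 133 to 126 bases before the start, Fga from 135 to 128, Fgb from 80 to 73 and Serpina5 from 242 to 235, while Fgg held none of the 4. No matches of different motifs overlapped in these sequences. RefSeq windows of 250 bases before to 50 after the start (build GRCm38.p6) were matched for 28 of the 36 members, with 30 windows, and 11 of these 30 (36.7%) held the C/EBP motif, against 10.8% of 32851 windows of all genes. The HNF4 motif was in 6.67% of the members' windows and 1.41% of all, the HNF1 motif in 6.67% and 0.618%, and the FOXA motif in 10.0% and 3.65%. These matches are a description of letters, not of bound sites. Some members are neighbours on the genome: F7, F10 and Proz follow each other on chromosome 8 with 1498 and 4231 bases between them, F11 lies 7410 bases from Klkb1 on the same chromosome, Fgg, Fga and Fgb lie within neighbouring stretches of chromosome 3 (11099 and 8132 bases apart), and Hrg, Kng2 and Kng1 lie side by side on chromosome 16.

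Of the 36 members, 33 reached a mean of 1 FPKM at 1 age or more and were tested, and F3, F8 and Plat did not. Serpina5, F13a1, Tfpi, Thbd and Plau passed this filter through the ages at which they were high, so the 33 are not a neutral sample of the 36. Tests were made with limma on log2(FPKM + 1), and p-values of the 11149 genes that were tested were adjusted together within each comparison (Benjamini-Hochberg). For the count of genes that differed from Day 60 at 1 age or more, the p-values of all 11 comparisons with Day 60 were adjusted together. All 33 differed from Day 60 at 1 age or more, beside 90.7% of all genes tested, so this count is close to that of the whole table. At Day -2, 24 of the 33 were lower than at Day 60 and 4 were higher, whereas among all genes tested 18.6% were lower and 56.4% were higher. The median log2 fold change was -1.59 over the members and 0.56 over all genes. The share of the members in the summed FPKM went from 0.67% (Day -2) to 2.87% (Day 0), 3.61% (Day 20) and 2.81% (Day 60).

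The number of members that differed from Day 60 fell with age, as did that of all genes, and from Day 1 on the members' share was near or below that of all genes at most ages. It was 28 at Day -2, where 75.1% of all genes tested were called, and 27 at Day 0, where 63.9% were. The count was 23 at Day 1 (65.0% of all genes), 19 at Day 3 (66.0%) and 19 at Day 5 (65.4%). It then came to 14 at Day 10 (46.0% of all genes), 11 at Day 15 (27.4%) and 7 at Day 20 (15.9%). From birth on, the direction was mixed: 11 members were higher and 16 lower than at Day 60 at Day 0, 11 and 12 at Day 1, 14 and 5 at Day 3, 12 and 7 at Day 5, and 12 and 2 at Day 10. Of the 11149 genes tested, 4861 were higher and 2264 lower at Day 0, 5949 and 1302 at Day 1, 6212 and 1144 at Day 3, 6340 and 948 at Day 5, and 3940 and 1187 at Day 10. The members' split depended on the scaling of the libraries at Days 1, 3 and 5, where a common upper quartile gave 7 higher and 17 lower at Day 1, 8 higher and 18 lower at Day 3, and 8 higher and 16 lower at Day 5. No member passed the test by limma at Day 25 (7.42% of all genes did), Day 30 (3.56%) or Day 45 (0.233%), and 6, 5 and 0 of the 33 had an unadjusted p under 0.05 at these ages. Fitting without the mean-variance trend also gave 0 members at each of them. The 7 members at Day 20 (F7, F10, Serpind1, Plg, Serpinf2, Hrg and Vwf) were all higher than at Day 60, and their number was 4 without Day 20 replicate 3.

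**Figure D1:**
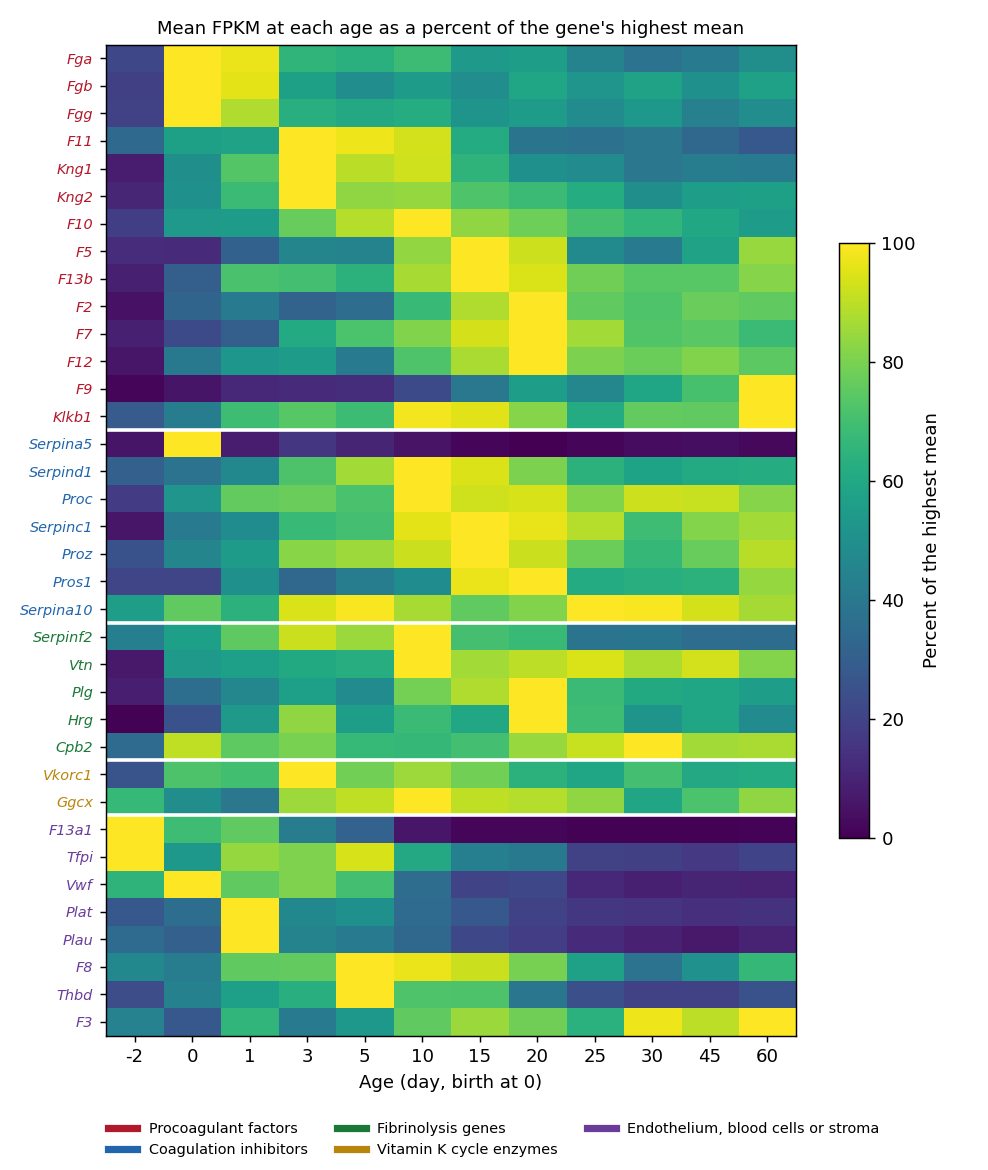
Mean FPKM (3 mice) of each of the 36 genes at each age on the horizontal axis, as a percent of that gene's highest mean, with genes grouped by role and coloured labels. Of the 28 liver-made genes 22 were lowest at Day -2, 16 were highest at Days 10 to 20, and the fibrinogen chains were highest at Day 0.

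Of the 3 steps between neighbouring ages that were tested, birth had the most members called. From Day -2 to Day 0, 26 of 33 members rose and 2 fell, while 13.1% of all genes tested rose and 41.4% fell. The number that rose was 20 without Day 0 replicate 1 and 24 with each library scaled to the same sum (TPM). Among the 26 was Serpina5, which passed the filter through Day 0 alone. The median change was 1.35 on the log2 scale over the members and -0.29 over all genes, and with a common upper quartile it was 1.62 and -0.08, with 26 members higher and 0 lower. In 24 of the 36 members all 3 mice of Day 0 were above all 3 mice of Day -2, which held for 15.9% of all genes tested. The summed hepatocyte markers rose and the erythroid markers fell in the same comparison, by the values given above, and their part in the members' change was not tested.

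The fibrinogen chains, which assemble into the precursor of fibrin, were the most abundant procoagulant mRNAs at birth. Fga was at 376, 291 and 302 FPKM in the 3 mice of Day -2 and at 1918, 1489 and 1044 in those of Day 0. Fgb went from 453, 441 and 566 to 3444, 2661 and 1538 FPKM, and Fgg from 517, 528 and 628 to 3225, 3110 and 2129. The mice of both ages were apart for each chain, and replicate 3 of Day 0 was the lowest of its age for all 3 chains. The rise was 4.59-fold for Fga, 5.24-fold for Fgb and 5.06-fold for Fgg as ratios of means, with log2 fold changes of 2.16 ± 0.20 (SE, adjusted p = 9.1e-10), 2.32 ± 0.19 (adjusted p = 8.6e-11) and 2.32 ± 0.14 (adjusted p = 1.05e-13). Day 0 was the highest age of all 3 chains, and at Day 60 they had come down to 49.3%, 57.3% and 49.0% of it. The 3 chains kept similar proportions across birth while their level rose, but the proportions shifted at later ages. Fgb stood at 0.87 ± 0.0334 of Fgg at Day -2, 0.882 ± 0.174 at Day 0, 0.734 ± 0.0507 at Day 5 and later 1.06 ± 0.0372 at Day 60. Fga ranged from 0.374 to 0.588 of Fgg in the means of the 12 ages.

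Prothrombin (F2), the precursor of thrombin, had the largest rise among the procoagulant factors. It was at 28.3, 62.9 and 37.4 FPKM at Day -2 and at 356, 269 and 256 at Day 0, so the mice of the 2 ages were far apart (log2 fold change 2.81 ± 0.19, adjusted p = 7.74e-13). The smallest change was that of F5, the cofactor that works with activated factor X, at 5.3, 3.35 and 2.06 FPKM at Day -2 and 4.05, 3.13 and 2.96 at Day 0 (-0.01 ± 0.48, adjusted p = 0.992). Of the 14 procoagulant factors, 12 rose at birth and F5 and F9 did not pass the test. F9, the factor that is lacking in haemophilia B, was at 0.342, 0.688 and 0.335 FPKM at Day -2 and 2.16, 1.2 and 1.29 at Day 0 (0.80 ± 0.38, adjusted p = 0.0751). All 3 mice of Day 0 were above those of Day -2, but at these low levels the pseudocount of 1 FPKM makes the log2 change smaller than the ratio of the means, 3.41.

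The contact system rose as a group: all 5 of its members passed the test, with log2 fold changes from 0.53 for Klkb1 (plasma kallikrein) to 2.73 for F12 (factor XII). F12 went from 16.1, 24.6 and 23 FPKM at Day -2 to 155, 151 and 130 at Day 0, a 6.83-fold rise. Kng1, a kininogen from which kallikrein frees bradykinin, went from 160, 164 and 155 to 1296, 1007 and 799 FPKM. Its neighbour Kng2 rose from 25.5 ± 2.09 to 121 ± 26 FPKM (SD, n = 3) and stayed between 0.106 and 0.16 of the level of Kng1 in the means of all ages. The 2 genes shared 4.89% (Kng1) and 5.74% (Kng2) of their 100-base stretches of transcript, so a small part of their reads may have been split between them. F11, the next protease of the cascade, rose 1.65-fold, from 11.4, 10.7 and 9.82 FPKM to 17.5, 20.4 and 14.7. Klkb1, next to it on chromosome 8, was at 11, 6.69 and 8.28 and then 13.5, 13.8 and 11 FPKM, so the mice of both ages met at 11 FPKM (log2 fold change 0.53, adjusted p = 0.0423). Its call was lost without Day -2 replicate 2 or 3, or without Day 0 replicate 1 or 2, and 7.42% of its 100-base stretches were shared with Cyp4v3.

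Of the 7 vitamin K-dependent proteins (F2, F7, F9, F10, Proc, Pros1 and Proz), 5 rose at birth and F9 and Pros1 did not pass the test. F7, which starts clotting with tissue factor, rose 2.57-fold and F10, the protease that cuts prothrombin, 2.91-fold, the latter from 74.9, 81.6 and 79.0 FPKM to 227, 223 and 235. The mice of an age differed little for F10 and the 2 ages were well separated (log2 fold change 1.53 ± 0.12, adjusted p = 4.05e-11). The subunit F13b, the carrier of factor XIII in plasma, rose from 2.54, 4.7 and 3.0 FPKM to 18.6, 10.7 and 6.42 (1.47 ± 0.36, adjusted p = 0.00119). Of the vitamin K cycle enzymes, Vkorc1, the target of warfarin that recycles the vitamin, was at 67.3, 78.9 and 91.8 FPKM at Day -2 and at 195, 207 and 252 at Day 0 (1.45 ± 0.19, adjusted p = 3.04e-07). Ggcx, the carboxylase that uses the vitamin, was at 11.4, 9.21 and 8.28 and then 5.32, 9.09 and 7.01 FPKM and did not pass the test (-0.40 ± 0.24, adjusted p = 0.161). Vkorc1 shared 66.8% of its 100-base stretches with the annotated transcripts of Prss53, so its level is uncertain.

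Among the coagulation inhibitors, antithrombin (Serpinc1), which blocks thrombin and factor Xa, rose most on the log2 scale. It was at 59.9, 83.4 and 76.6 FPKM at Day -2 and at 535, 470 and 479 at Day 0 (2.75 ± 0.16, adjusted p = 3.79e-14). Proc, protein C, rose 2.93-fold and Proz, protein Z, 1.79-fold. Pros1, protein S, the cofactor of protein C, was at 2.4, 1.79 and 1.65 and then 2.64, 1.91 and 1.27 FPKM, and the mice of the 2 ages overlapped (-0.02 ± 0.30, adjusted p = 0.96). Serpind1 (heparin cofactor II) and Serpina10 (the protein Z-dependent inhibitor) rose by 1.24-fold and 1.35-fold, both with calls that single mice decided: Serpind1 lost its call without Day -2 replicate 1, or Day 0 replicate 1 or 3, and Serpina10 without Day -2 replicate 1 or 3, or Day 0 replicate 1 or 3. Proz lost its call without Day -2 replicate 3.

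Serpina5, the protein C inhibitor, had its highest mean at Day 0 and was below 1 FPKM in every mouse of the other 11 ages. At Day 0 the 3 mice were at 3.11, 4.81 and 3.91 FPKM, against 0.184, 0.323 and 0.176 at Day -2 and 0.258, 0.514 and 0.164 at Day 1. The mice of Day 0 did not overlap with those of either neighbouring age, and the log2 differences were 2.00 at birth and -1.91 from Day 0 to Day 1. Serpina5 passed the filter through Day 0 alone, so these values are a description, although it is counted among the members that rose at birth and fell to Day 1. At Day 20, 2 of 3 mice were listed at 0. Serpina10, 469668 bases away in the serpin cluster of chromosome 12, did not follow this course and stayed between 58.2 and 104 FPKM in the means of all ages.

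All 5 fibrinolysis genes rose at birth. Hrg, histidine-rich glycoprotein, a plasma protein that binds plasminogen and heparin, had the largest change of all members. It was at 5.78, 4.24 and 6.31 FPKM at Day -2, at 379, 145 and 272 at Day 0 and at 564, 631 and 506 at Day 1. The means rose 48.7-fold at birth and a further 2.14-fold by Day 1 (5.28 ± 0.23, adjusted p = 6.63e-17, and 1.19 ± 0.23, adjusted p = 0.000276). The other members with roles in fibrinolysis rose less. Vtn, vitronectin, which stabilises the inhibitor PAI-1, rose 7.74-fold, Plg, plasminogen, 4.23-fold and Cpb2, a carboxypeptidase that protects fibrin, 2.6-fold. The smallest rise was 1.3-fold for Serpinf2, α2-antiplasmin, the main inhibitor of plasmin, which was already at 359, 398 and 431 FPKM at Day -2 and at 557, 465 and 524 at Day 0 (0.38 ± 0.14, adjusted p = 0.023). This call was lost without Day -2 replicate 1, or Day 0 replicate 1 or 3. The mRNA of plasminogen stood at 0.205 ± 0.0304 of that of its inhibitor at Day -2, 0.658 ± 0.0759 at Day 0, 1.53 ± 0.033 at Day 20 and finally 1.64 ± 0.153 at Day 60.

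**Figure D2:**
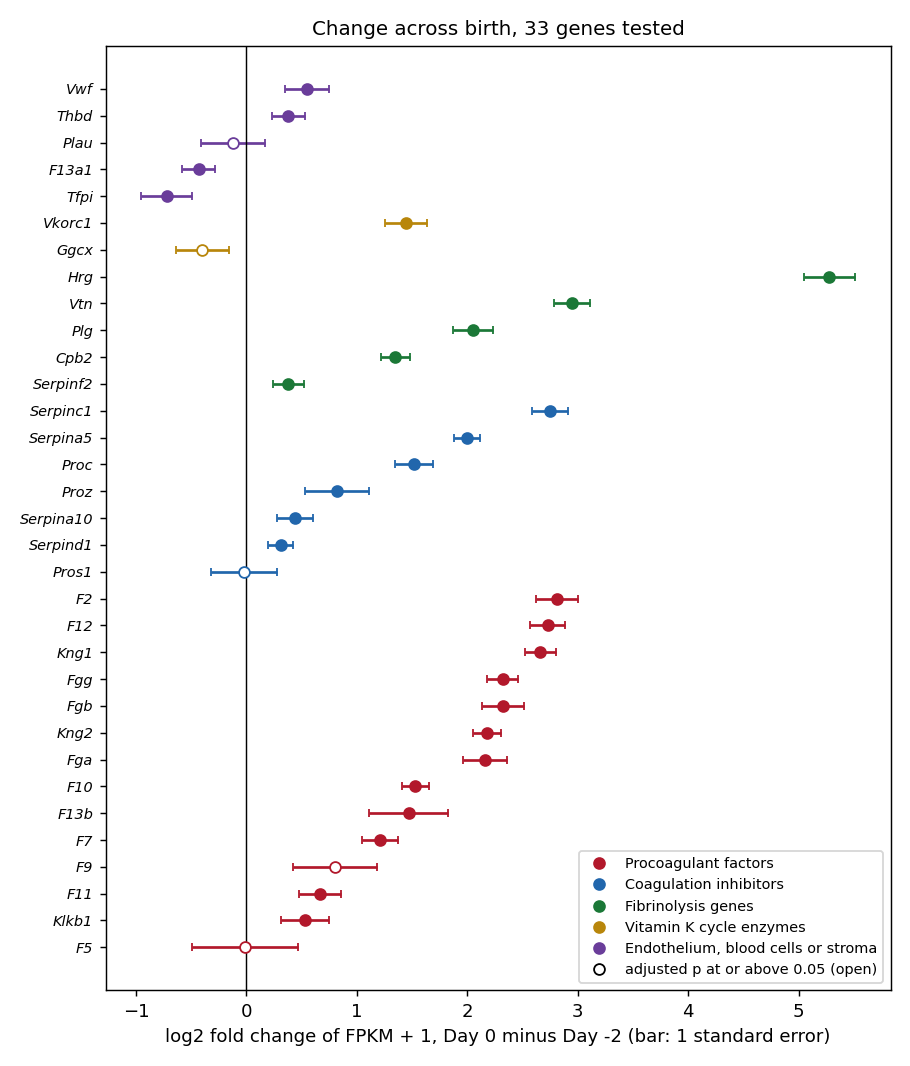
Log2 fold change of FPKM + 1 from Day -2 to Day 0 for the 33 genes tested, with 1 standard error as bars, grouped by role, filled where the adjusted p was under 0.05. Hrg lies farthest to the right at 5.28, and F5, Pros1 and F9 are open symbols among genes that rose.

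From Day 0 to Day 1, 10 members rose and 1 fell, beside 23.7% of all genes that rose and 7.88% that fell. The number that rose was 3 without Day 0 replicate 3 and 6 without Day 1 replicate 2, and it was 5, with 3 lower, when libraries were scaled to a common upper quartile. F13b had the largest rise of a procoagulant factor on the log2 scale, from 18.6, 10.7 and 6.42 FPKM to 34.9, 25.6 and 23.8 (1.27 ± 0.36, adjusted p = 0.00852). It lost its call without Day 0 replicate 3 or Day 1 replicate 1. Pros1, which had not risen at birth, went to 5.85, 3.62 and 4.54 FPKM at Day 1, all above the mice of Day 0 (0.96 ± 0.30, adjusted p = 0.0157), and its call was lost without Day 0 replicate 3 or Day 1 replicate 1. F5 went to 12.0, 8.19 and 6.04 FPKM, also all above those of Day 0, and did not pass the test (1.12 ± 0.48, adjusted p = 0.0717). The fibrinogen chains stayed at their birth level, with log2 fold changes of -0.17 to 0.00 and no call.

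After birth the liver-made genes reached their highest mean at different ages, so that the composition of the group changed. Kng1, Kng2, F11 and Vkorc1 were highest at Day 3, F10, Serpind1, Proc, Serpinf2, Vtn and Ggcx at Day 10, F5, F13b, Serpinc1 and Proz at Day 15, and F2, F7, F12, Pros1, Plg and Hrg at Day 20. Kng1 was at 2103, 2043 and 2106 FPKM at Day 3 and at 851, 856 and 898 at Day 60, so that the adult held 41.7% of the Day 3 level. F11 was at 34.5, 28.8 and 29.5 FPKM at Day 3 and at 9.29, 8.76 and 7.29 at Day 60, and its adult level was the lowest mean of all ages. Plasma kallikrein (Klkb1), the neighbour of F11, had its highest mean at Day 60, at 32, 34.2 and 24.5 FPKM. Its difference from Day 60 did not pass the test by limma at Day 3 (-0.42, adjusted p = 0.0922) or Day 10 (-0.02, adjusted p = 0.942). Hrg was at 844, 952 and 848 FPKM at Day 3, at 603, 601 and 680 at Day 15, and at 1100, 869 and 1193 at Day 20. Among members with a narrow range, Serpina10 varied least, with 1.79-fold between its highest and lowest means, followed by Ggcx with 2.51-fold, F8 with 2.63-fold, Serpinf2 with 2.84-fold and Cpb2 with 2.87-fold.

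**Figure D3:**
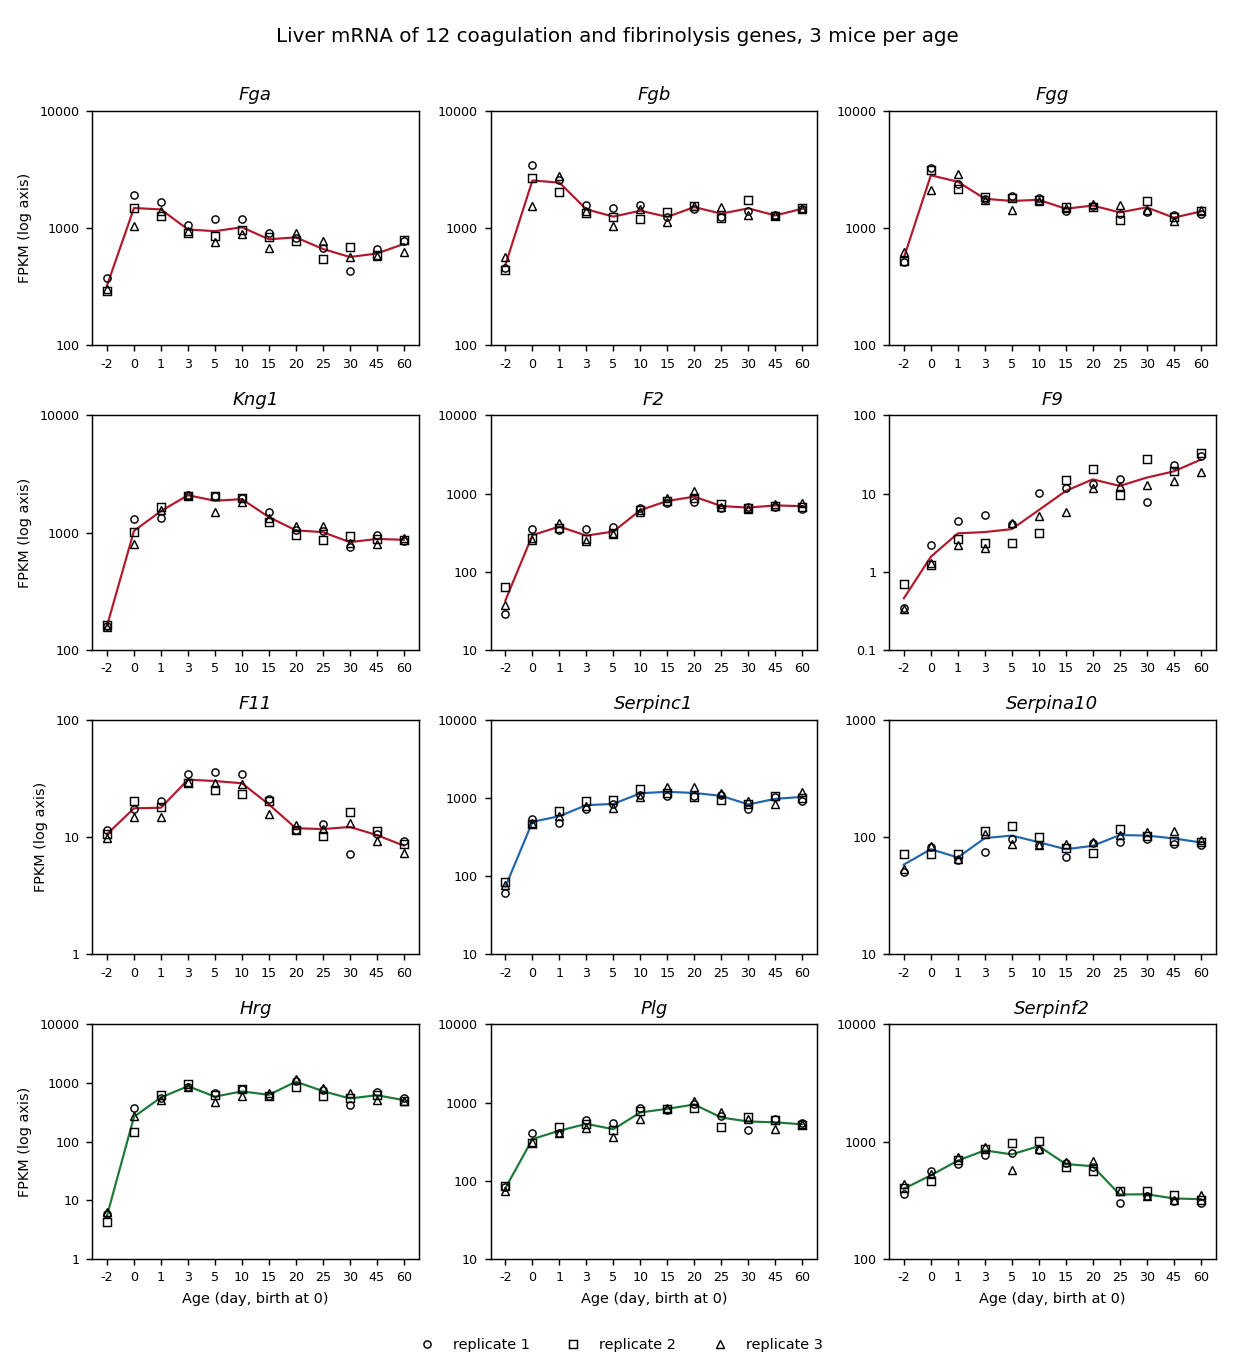
FPKM on a log axis against age for 12 genes, each symbol a mouse and each line the mean of 3 mice, coloured by role. Most genes step up between Day -2 and Day 0, F9 has its highest mean at Day 60 (27.1 FPKM), and Serpinf2 steps down from 616 FPKM at Day 20 to 353 at Day 25.

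F9 reached its highest mean at Day 60, as did Klkb1 and F3. Its mice were at 10.1, 3.13 and 5.16 FPKM at Day 10, 13.2, 20.5 and 11.9 at Day 20, 23.4, 19.5 and 14.6 at Day 45 and 29.8, 32.6 and 18.8 at Day 60. The mean at Day 60 was 59.5 times that at Day -2 (log2 fold change of Day -2 against Day 60 -4.24 ± 0.38, adjusted p = 4.07e-11). F9 was lower than at Day 60 at each age from Day -2 to Day 15, where the log2 difference was -1.30 and no other member was lower, and did not pass the test from Day 20 to Day 45. F2 and F12 were also lower than at Day 60 from Day -2 to Day 5 but not later. In the test of Days 1 to 20 against Days 25 to 60, F9 had the largest difference of the procoagulant factors (-1.47 ± 0.17, adjusted p = 9.78e-09).

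Across suckling and the ages after weaning, 16 members were higher at Days 1 to 20 and 6 were lower (F2, F9, F12, Serpina10, Cpb2 and Vtn), beside 68.1% and 11.7% of all genes tested. The median of all genes was 0.39 in this comparison and 0.13 with a common upper quartile, which gave 9 members higher and 15 lower. Among genes called with either scaling it turned the sign of F10, Fgb, Fgg, Klkb1, Serpind1, Proz, Plg, Hrg, Ggcx and Vkorc1, and F5 and F13b turned without a call. Among the members that were higher at Days 1 to 20 with both scalings were Serpinf2 (1.12 ± 0.06, adjusted p = 1.44e-15), F11 (0.99 ± 0.09, adjusted p = 3.6e-11) and Kng1 (0.83 ± 0.07, adjusted p = 2.81e-12), with 0.70, 0.61 and 0.42 after the common upper quartile. Proc had the smallest difference of the inhibitors (-0.03 ± 0.08, adjusted p = 0.733), but it was lower with the common upper quartile (-0.44, adjusted p = 0.000158).

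Across weaning 2 of 33 members were called, a share near that of all genes, and 4 were with a common upper quartile. From Day 20 to Day 25, Serpinf2 and Plg fell and limma called 0 of 33 higher, also without the mean-variance trend, beside 3.26% of all genes that fell and 3.94% that rose, and 9 members had an unadjusted p under 0.05 in either direction. Serpinf2 went from 610, 561 and 678 FPKM to 299, 379 and 382, with no overlap (-0.80 ± 0.14, adjusted p = 0.000186), and stayed between 322 and 355 FPKM in the means of Days 30 to 60. This fall was called in each fit that left out a mouse. Plg went from 954, 841 and 1038 to 678, 491 and 756 FPKM, also apart (-0.58 ± 0.18, adjusted p = 0.0414), but its call was lost without any of the 3 mice of Day 20, or without Day 25 replicate 1 or 2. The number that fell was 4 without Day 30 replicate 1. F5 had the widest difference of the procoagulant factors (-1.03 ± 0.48, adjusted p = 0.23), with 28.1, 28.7 and 21.2 FPKM at Day 20 and 17.7, 5.74 and 16.8 at Day 25.

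The comparison of Day -2 with Day 60 gives the distance between the fetal and the adult liver for each role. Among the procoagulant factors 13 of 14 were lower before birth, from F9 down to Fga (-1.18 ± 0.20, adjusted p = 5.43e-06), and F11 did not pass the test (0.30 ± 0.19, adjusted p = 0.159). Of the inhibitors 6 of 7 were lower, with Serpinc1 at -3.81 ± 0.16 (adjusted p = 9.66e-19) and Serpina10 at -0.64 ± 0.16 (adjusted p = 0.000643). Of the fibrinolysis genes 4 of 5 were lower, with Hrg at -6.32 ± 0.23 (adjusted p = 4.66e-20), and Serpinf2 did not pass the test (0.30 ± 0.14, adjusted p = 0.056). The values of F11 and Serpinf2 turned to -0.24 and -0.31 with a common upper quartile, also without a call. The 3 roles had medians of -2.41, -1.59 and -2.70 on the log2 scale, where all genes had 0.56 and 18.6% of them were lower. Other genes of hepatocytes were also lower before birth. All 6 hepatocyte markers were lower, with a median of -3.85. Of the 10 acute phase genes 8 were lower and 1 higher, with a median of -3.91. Vkorc1 was lower (-1.23 ± 0.19, adjusted p = 8.58e-07) and Ggcx was not called in the main test (-0.30 ± 0.24, adjusted p = 0.268), though it was with a common upper quartile (-0.85).

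Of the 8 genes known mainly from endothelium, blood cells or stroma, 7 had their highest mean between Day -2 and Day 5, and F3 had it at Day 60. Of the 5 that were tested, 4 were called higher at Day -2 than at Day 60, as were 56.4% of all genes, and 5 higher at Days 1 to 20 than at Days 25 to 60, as were 68.1% of all genes. F13a1, Tfpi, Thbd and Plau were below a mean of 1 FPKM at Day 60 and passed the filter through the early ages, so these counts follow in part from the filter and are a description. F13a1, the catalytic subunit of factor XIII, made by platelets and macrophages, was at 5.84, 4.65 and 4.09 FPKM at Day -2 and at 0.0635, 0.0227 and 0.0301 at Day 60. It fell to 2.05 ± 0.301 FPKM by Day 3, 0.302 ± 0.0525 by Day 10 and 0.0596 ± 0.0312 by Day 20. The summed level of 7 megakaryocyte and platelet markers was from 239 to 275 FPKM at Day -2, from 304 to 337 at Day 1, from 33.6 to 52.2 at Day 10 and from 2.47 to 2.71 at Day 60. All 7 of these markers were higher at Day -2 than at Day 60. Of them Gp6 was listed at 0 in 1 or 2 mice of Days 20, 45 and 60. The summed level of 7 macrophage and monocyte markers was from 76.4 to 81.2 FPKM at Day -2, from 149 to 186 at Day 5 and from 48.9 to 62.4 at Day 60. Their part in the course of F13a1 was not tested.

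Vwf, von Willebrand factor, the carrier of factor VIII that endothelium and megakaryocytes make, was at 10.4, 7.7 and 12.9 FPKM at Day 0 and at 1.09, 1.06 and 0.856 at Day 60. Its rise from Day -2 to Day 0 (0.55 ± 0.20, adjusted p = 0.0222) was lost without Day -2 replicate 2 or 3, or Day 0 replicate 1 or 3, while its difference between Days 1 to 20 and Days 25 to 60 was the largest of these genes (1.47 ± 0.09, adjusted p = 1.15e-14). Tfpi, the inhibitor of tissue factor and factor VIIa, was at 5.38, 3.24 and 3.99 FPKM at Day -2 and at 0.957, 0.886 and 0.716 at Day 60. It was lower at Day 0 than at Day -2 (-0.72 ± 0.23, adjusted p = 0.00908), as was F13a1, but both calls were lost without Day -2 replicate 1, without Day 0 replicate 3 or with a common upper quartile. Thbd, thrombomodulin, which turns thrombin towards protein C, rose from 0.548 ± 0.0545 FPKM at Day -2 to 2.32 ± 0.222 at Day 5 and was at 0.586 ± 0.122 at Day 60. Day 5 was also the age at which the summed level of 7 endothelial markers was highest, from 105 to 123 FPKM, against 40.0 to 56.8 at Day -2 and 56.8 to 68.9 at Day 60. The part of endothelium in these values was not tested. The rise of Thbd at birth was lost without any of the 3 mice of Day -2, or without Day 0 replicate 1 or 2.

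The plasminogen activators Plau (urokinase) and Plat (tissue-type activator) had their highest value in the same mouse. At Day 1, Plau was at 2.08, 12.5 and 2.37 FPKM and Plat at 0.531, 1.9 and 0.405, the second value being replicate 2 in both. No other mouse reached 3 FPKM for Plau, which was between 1.86 and 2.09 at Day -2 and between 0.331 and 0.804 at Day 60. The call of Plau from Day 0 to Day 1 (0.93 ± 0.29, adjusted p = 0.0154) rested on this mouse and was lost without it, with a log2 fold change of 0.24. At Day 1 the summed endothelial markers ranged from 63.7 to 94.6 FPKM and the stellate and stromal markers from 92.1 to 129. Plat, F3 (tissue factor) and F8 (factor VIII, made by sinusoidal endothelium) stayed below a mean of 1 FPKM at every age: F3 between 0.104 and 0.376, F8 between 0.222 and 0.585 and Plat between 0.13 and 0.946.

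**Figure D4:**
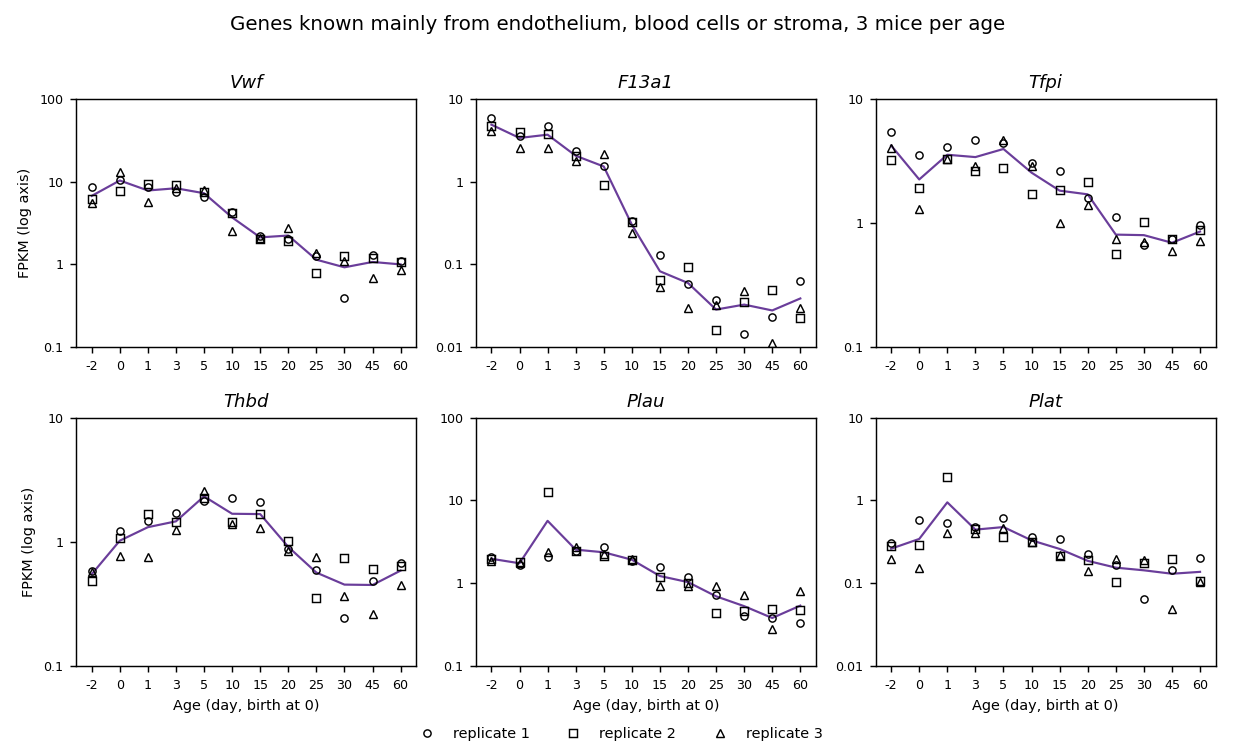
FPKM on a log axis against age for 6 genes of endothelium, blood cells or stroma, each symbol a mouse and the line the mean of 3 mice. F13a1 falls from 4.86 to 0.0388 FPKM between Day -2 and Day 60, and Day 1 replicate 2 lies above the other mice for Plau (12.5 FPKM) and Plat (1.9 FPKM).

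A list of 24 other genes of the pathway (further inhibitors, receptors, transport and cofactor genes) was fixed for comparison, and 23 of them were in the table. Of these, 19 were tested, and 8 were higher and 8 lower at Day -2 than at Day 60, beside 56.4% and 18.6% of all genes tested. At birth 10 rose and 4 fell, beside 13.1% and 41.4% of all genes. Of the 10 that passed the test of Day -2 against Day 60 and reached a mean of 10 FPKM, 2 were higher at Day -2. These were A2m, the broad protease inhibitor α2-macroglobulin, and Anxa2, a cell-surface receptor for plasminogen. A2m was at 25.7 ± 2.31 FPKM at Day -2, 321 ± 163 at Day 0 and 0.0289 ± 0.00749 at Day 60. Anxa2 was at 87.4 ± 14.3 FPKM at Day -2 and 7.33 ± 0.67 at Day 60. Its partner S100a10 was lower at Day -2 than at Day 60, at 29.5 ± 8.16 against 92.0 ± 11.7 FPKM. Lower before birth were also Serping1, the inhibitor of the contact system (57.8 ± 2.61 against 363 ± 22 FPKM), Pzp (38.9 ± 7.06 against 837 ± 8.89), Hgfac (27.4 ± 1.84 against 100 ± 9.87), Habp2 (30.8 ± 2.44 against 60.1 ± 5.55), Mcfd2, which helps factors V and VIII out of the endoplasmic reticulum (24.3 ± 0.664 against 51.4 ± 1.52), Gas6 (2.63 ± 0.172 against 10.7 ± 3.21) and Tfpi2 (3.84 ± 0.748 against 17.7 ± 0.971). Pzp, the close relative of A2m, was at 204 ± 50.7 FPKM at Day 0, so the means of both were higher at Day 0 than at Day -2, and at Day 60 Pzp was higher and A2m lower than before birth. All 8 liver transcription factors read for comparison, HNF4, HNF1, FOXA and C/EBP genes among them, were lower at Day -2 than at Day 60, and 5 of them rose at birth, with a median log2 fold change of 0.57. The summed level of 10 acute phase genes rose from 458 ± 128 FPKM at Day -2 to 3523 ± 682 at Day 0, 8906 ± 961 at Day 20 and 6922 ± 1674 at Day 60. Hp and Hpx made up most of this sum, at 2970 ± 451 and 4612 ± 535 FPKM at Day 20. At Day 0, 3 of the 10 acute phase genes were higher than at Day 60 and 6 were lower (median log2 fold change -1.86), beside 4861 and 2264 of the 11149 genes tested. Lcn2 and Apcs were lower at Day 60 than at Day 0, as the fibrinogen chains were, though most genes of this list went the other way. Lcn2 went from 381 ± 94.4 FPKM at Day 0 to 1.92 ± 1.46 at Day 60, and Apcs from 683 ± 279 to 44.0 ± 8.18.

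The spread between mice of an age was wide for some members and narrow for others. The 5 members picked after their values were seen, F5, F9, F13b, Pros1 and Klkb1, all had their lowest value in the same mouse at 7 of the 12 ages, and all had their highest value in the same mouse at 6. At Day 30, F5 was at 3.93, 19.4 and 11.7 FPKM, F9 at 7.73, 27.4 and 12.8 and F13b at 18.9, 42.5 and 26.2. Replicate 1 was the lowest and replicate 2 the highest for each, while F2 in the same mice was at 681, 658 and 641 FPKM, within 1.06-fold. This contrast was not seen at every age. At Day -2 the mice differed 2.22-fold for F2, against 2.57-fold for F5 and 2.05-fold for F9. At Day 20 they differed 1.48-fold for F12, against 1.35-fold for F5 and 1.72-fold for F9. The transcripts of the 5 genes had a GC content of 39.0% to 46.2%, and those of F2, F10 and F12, which stayed within 1.13-fold at Day 30, 52.0% to 58.5%. Both groups of genes were picked for their spread. Among other members, the standard error was 0.14 for Fgg (42.7% GC) and 0.13 for Cpb2 (44.3% GC). It was 0.23 for Tfpi (39.7% GC) and 0.29 for Proz (51.7% GC). The part of base composition in this spread was not tested. The spread between mice set the error of these genes: the standard error of a difference was 0.48 for F5 and 0.38 for F9, against 0.12 for F10.

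**Figure D5:**
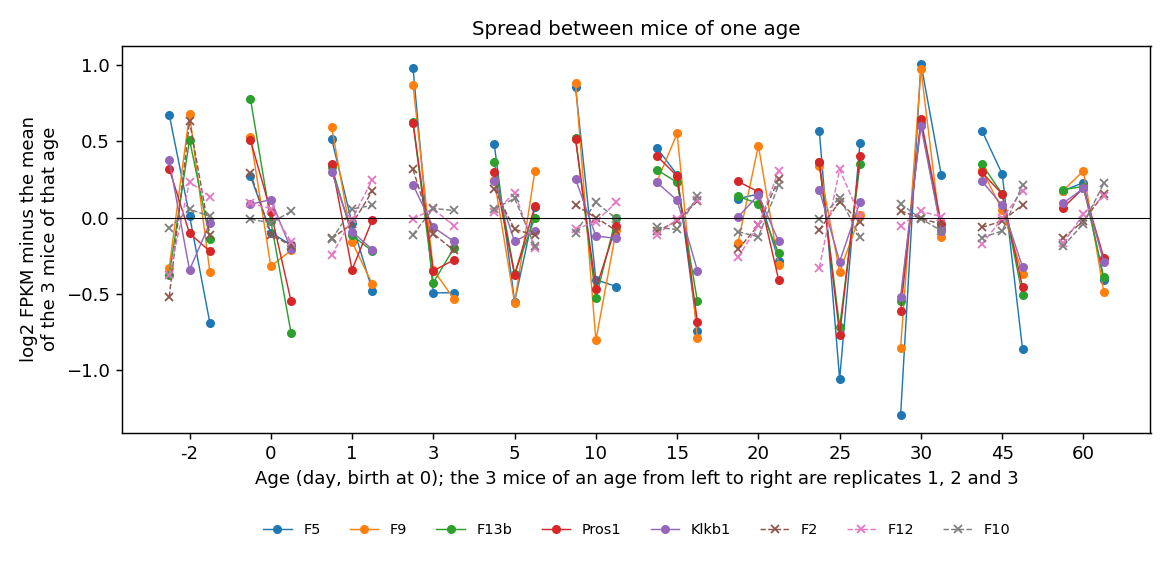
Log2 FPKM of each mouse minus the mean of the 3 mice of its age, against age, for 5 genes that varied together (circles, solid lines) and 3 others (crosses, dashed lines). Day 30 replicate 1 lies below and replicate 2 above the mean for all 5, and F2, F12 and F10 stay near 0 in the same mice.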

How the data were processed

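Poly-A RNA of livers from 36 male mice was sequenced as paired reads of 100 bases. The authors aligned them with TopHat 1.2.0 to mm9 and estimated expression with Cufflinks 1.0.3 on Ensembl gene models, and deposited FPKM values for 21889 gene symbols, with 3 mice at each of 12 ages. These values are estimates normalized per library, and read counts were not used here. Only 66.0% of low values lay within 0.1 of whole reads, so no counts were recovered and depth is given only in relative terms.

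Tests used limma 3.58.1 in R 4.3.3 on log2(FPKM + 1), with 1 mean per age over all 36 mice, a mean-variance trend and Benjamini-Hochberg adjustment (threshold 0.05) over the 11149 genes whose mean reached 1 FPKM at 1 age or more. The adjustment was made within each comparison. Only for the count of genes that differed from Day 60 at 1 age or more were all 11 comparisons with Day 60 adjusted together. A fold change on the scale of log2(FPKM + 1) understates the change of low genes. In simulated data for Day -2 against Day 60 (11149 genes, 200 changed), 78% of 2-fold and 93% of 4-fold changes were recovered, with 5% false calls. In the mouse data, 75.1% of all genes tested were called in this comparison, and recovery or false calling at that share was not tested. Figures and sums were made with Python 3.11.15, numpy 2.4.6, pandas 2.3.3 and matplotlib 3.10.9.

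The members, the lists and the comparisons were chosen with earlier results of these data known. Genes were named by rule: for each role and comparison, the members with the largest and the smallest change, and of other pathway genes those that passed the test of Day -2 against Day 60 and reached 10 FPKM. Members outside the rule were described for their role. Alternatives were a pseudocount of 0.1, no filter, a filter at 5 FPKM, a common upper quartile, TPM, a replicate block, no mean-variance trend, and leaving out each mouse.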

Additional observations from a re-analysis of the deposited data

How the results depend on the processing

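Scaling and single mice changed small counts and also some larger ones. Members higher at Day 0 than at Day -2 numbered 26, against 24 with TPM and 20 to 26 when a mouse was left out (20 without Day 0 replicate 1). Members lower at Day 0 than at Day -2 numbered 2, against 1 with a pseudocount of 0.1, 0 with a filter at 5 FPKM, 0 with a common upper quartile and 0 to 2 when a mouse was left out. Members lower at Day 25 than at Day 20 numbered 2, against 1 without a filter, 4 with the upper quartile, 1 with TPM and 1 to 4 when a mouse was left out. Against Day 60, members changed at Day 25 numbered 0, with 2 for a filter at 5 FPKM, 1 for the upper quartile, 1 for TPM and 0 to 2 when a mouse was left out (2 without Day 60 replicate 3), and at Day 30 they numbered 0 to 2 (2 without Day 30 replicate 2). At Day 20 they numbered 4 to 8. Members higher at Day -2 than at Day 60 numbered 2 with a filter at 5 FPKM. From Day 0 to Day 1, members higher numbered 5 with the upper quartile and 3 to 14 when a mouse was left out (14 without Day 0 replicate 1), and members lower numbered 0 with a filter at 5 FPKM, 3 with the upper quartile and 1 to 2 when a mouse was left out. For Days 1 to 20 against Days 25 to 60 the upper quartile gave 9 higher and 15 lower, and, among genes called with either scaling, turned F10 to -0.07, Fgb to -0.29, Fgg to -0.05, Klkb1 to -0.32, Serpind1 to -0.07, Proz to -0.24, Plg to -0.27, Hrg to -0.13, Ggcx to -0.27 and Vkorc1 to -0.08, while F5 (-0.21) and F13b (-0.33) turned without a call. Mice of the same replicate number were not treated as paired, since the labels name nothing that they share. Not every pair deviated together from the means of their ages: over 198 such pairs r was from -0.68 to 0.829 with a median of 0.126. The median for different numbers was -0.048. It is no independent contrast, since the deviations of the mice of an age sum to 0. Of the 198 pairs 104 were over 0.1, and 19 of 36 mice correlated best with their own number, a hint from the data of something shared. With the replicate block 2 members were called at Day 25 against Day 60, and 21 of 22 counts stayed within 1.5 times. The cause of these changes was not tested. The study gives an average number of reads per sample, but the depth of each library in reads is unknown. This limits what can be said of members below 1 FPKM.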
